A study of Mus musculus with 24 samples.

Results

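The 10 genes described here encode transcription factors and a coactivator that set up and hold the B cell identity: Pax5, Ebf1, Foxo1, Ikzf1, Ikzf3, Bach2, Bcl6, Bcl11a, Pou2f2 and Pou2af1. They were chosen by name, as the rows of both raw count tables whose symbol matched, and make up 10 of the 27179 genes counted. All 10 passed the filter on low counts in naive, CD40L + IL-4 and LPS + IL-4 cells. The study asked how PU.1 and SpiB, a pair of related Ets-family transcription factors, act singly and together in mature B cells.

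RNA was sequenced from lymph node B cells of C57BL/6 mice, either naive or after 48 h of culture with CD40 ligand and interleukin-4 (CD40L + IL-4) or with lipopolysaccharide and interleukin-4 (LPS + IL-4), so that 4 genotypes and 3 stages gave 12 groups of 2 libraries. Control mice were Cd23T/+ and so carried only the transgene in which Cd23 control sequences drive Cre, starting in transitional B cells of the spleen. PU.1 cKO mice were Spi1fl/fl Cd23T/+, with a floxed exon of Spi1 (the gene of PU.1) removed by that Cre. SpiB KO mice were Spi1fl/fl Cd23+/+ Spib-/-, with SpiB missing in every cell, floxed but intact Spi1 alleles and no Cre. PU.1 SpiB DKO mice were Spi1fl/fl Cd23T/+ Spib-/-. The 2 genotypes with both floxed Spi1 and Cre are named the floxed Cre mutants where they are described together. The 2 libraries of a group are biological replicates by the study's methods, and the cells came from adult mice matched in age and sex within an experiment. Cells for RNA were sorted as B220+, CD3- and CD138-, a gate that leaves out T cells and plasma cells. The control and the SpiB KO differed in Cre and in the floxed alleles as well as in Spib.

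Pax5 and Ebf1 commit progenitors to the B lineage and switch on the genes of the B cell receptor and its adaptors, and Pax5 is needed until a cell becomes a plasma cell. Foxo1 is held in the cytoplasm by signalling through phosphoinositide 3-kinase, and in resting B cells drives genes of homing and quiescence. Ikaros (Ikzf1) and Aiolos (Ikzf3) are zinc finger factors of lymphocytes. Bach2 and Bcl6 are repressors that oppose the plasma cell factor Blimp-1 (Prdm1), and Bcl6 is needed for germinal centres. Bcl11a is a zinc finger repressor of early lymphoid cells and of plasmacytoid dendritic cells, and Oct-2 (Pou2f2) with its B cell coactivator OCA-B (Pou2af1) acts on octamer sites in B cell promoters.

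PU.1 and SpiB bind purine-rich sites built around GGAA, so the 250 bases before the RefSeq start sites of the members (GRCm38.p6) were read for such letters. The table held 12 starts for 9 of the members and none for Ikzf3. The full site GAGGAAGT was in 0 of these 12 windows on either strand, against 2.44% of all 32851 windows of that length. Its left part GAGGAA was in 3 of the 12, against 23.3% of all windows, and its right part GGAAGT was in 2, against 19.7%; the octamer ATGCAAAT was in 0, against 1.6%. The 3 windows with GAGGAA belonged to Bcl6, Ebf1 and Pou2f2, and the 2 with GGAAGT were those of Ebf1 and Pou2f2. Pax5, Bach2 and Bcl11a, which were also called lower in 1 or more mutants, had no match. These 5 matches are shown with the matched letters in capitals (reverse complement where the match was on the other strand). Each is read 5′ to 3′ along the gene. Both letter strings share GGAA and would overlap in the full site.
Bcl6, GAGGAA 191 bases before the start, chr16:23989011-23989070, minus strand: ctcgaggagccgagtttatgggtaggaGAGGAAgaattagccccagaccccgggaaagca
Ebf1, reverse complement of GAGGAA 130 bases before the start, chr11:44620071-44620130, plus strand: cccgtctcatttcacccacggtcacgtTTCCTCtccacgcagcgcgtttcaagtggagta
Ebf1, reverse complement of GGAAGT 56 bases before the same start, chr11:44620145-44620204, plus strand: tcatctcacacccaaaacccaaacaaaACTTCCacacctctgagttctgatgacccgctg
Pou2f2, reverse complement of GAGGAA 85 bases before the start, chr7:25132513-25132572, minus strand: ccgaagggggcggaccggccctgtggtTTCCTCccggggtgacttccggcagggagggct
Pou2f2, reverse complement of GGAAGT 71 bases before the same start, chr7:25132499-25132558, minus strand: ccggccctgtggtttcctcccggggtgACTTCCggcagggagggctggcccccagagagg
The starts of the Pou2f2 and Ebf1 matches lie inside these genes in the same annotation. The 5′ gene ends are at chr7:25180797 for Pou2f2 and chr11:44618100 for Ebf1. A match is a run of letters and no evidence of binding, and a missing match in 250 bases does not show that binding is absent. The study took PU.1 binding from ChIP-seq peaks over a wider span around each gene, which was not analysed here.

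The genes lie on 6 chromosomes in the GRCm38.p6 RefSeq table: Foxo1 at chr3:52268337-52350109, Bach2 at chr4:32238413-32586109, Pax5 at chr4:44524748-44710694, Pou2f2 at chr7:25087350-25180797, Pou2af1 at chr9:51213690-51240079, Ikzf1 at chr11:11684962-11772930, Bcl11a at chr11:24076564-24173558, Ebf1 at chr11:44618100-45008096, Ikzf3 at chr11:98464610-98546031 and Bcl6 at chr16:23965050-23988866. Ebf1, Foxo1 and Pou2af1 overlap no other gene of that table. The other 7 each overlap 1 to 3 short or noncoding genes (among them Bach2os in Bach2 and Mir5120 in Pax5), and the library kit keeps no strand, so reads of an antisense partner cannot be told from theirs.

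The targeted genes were checked first. Spib in control cells was at 1472 and 1355 CPM (read counts scaled to a fixed library size) in naive cells, 398 and 525 with CD40L + IL-4 and 276 and 211 with LPS + IL-4. In every library labelled SpiB KO or PU.1 SpiB DKO it was between 9.05 and 100.4 CPM, below every control and PU.1 cKO library of its stage. Spi1 was at 155 and 174 CPM in naive control, 59.5 and 53.2 in PU.1 cKO and 103 and 110.2 in PU.1 SpiB DKO. In CD40L + IL-4 it was at 84.9 and 108, 46.9 and 35.1 and 32.5 and 25.6 in the same order, and in LPS + IL-4 at 72.0 and 60.7, 44.2 and 41.2 and 63.9 and 58.9. In LPS + IL-4 the PU.1 SpiB DKO libraries thus overlapped control in Spi1 (log2 fold change -0.11 ± 0.10, adjusted p = 0.448), so that their Spi1 count did not bear out the label, and in naive cells they lay between control and PU.1 cKO. Whole-gene counts include exons that the deletion leaves in place, and they hold no value for the floxed exon alone. The study looked at coverage of that exon and describes it as partly kept in naive PU.1 SpiB DKO and as efficiently removed in both cultures, LPS + IL-4 included; that coverage was not analysed here. The LPS + IL-4 libraries are called below the libraries labelled PU.1 SpiB DKO, and a direction given for them carries that doubt.

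Markers of other cells moved with genotype in the naive libraries. The summed level of 10 genes of plasmacytoid dendritic cells was 452 to 532 CPM in control and 454 to 514 in PU.1 cKO, but 2081 to 2561 in SpiB KO and 2755 to 3010 in PU.1 SpiB DKO. T cell markers summed to 67.9 to 96.7 CPM in control, 468 to 486 in PU.1 SpiB DKO, 307 to 368 in SpiB KO and 108 to 111 in PU.1 cKO. The 6 B cell markers, with none at 0, summed to 11320 to 11570 CPM in naive control, 10850 to 10920 in PU.1 cKO, 9182 to 9410 in SpiB KO and 7669 to 8366 in PU.1 SpiB DKO. In CD40L + IL-4 their sum was 6510 to 8109 CPM in control, 5179 to 5566 in PU.1 cKO, 6319 to 8521 in SpiB KO and 3986 to 4938 in PU.1 SpiB DKO, and in LPS + IL-4 it was 3317 to 4540 over the 8 libraries. The B cell sum was thus lowest in PU.1 SpiB DKO in the 2 stages where members were called lower there, and its part in those falls was not tested. In both cultures the dendritic sum stayed between 190.3 and 299 CPM in all 16 libraries and the T cell sum at 79.0 CPM or below, and in LPS + IL-4 the libraries labelled PU.1 SpiB DKO, with 64.8 to 68.6 CPM, had a higher T cell sum than the rest. Ikzf1, Ikzf3, Foxo1, Bach2, Bcl6 and Bcl11a are also used by T cells or dendritic cells. The sort was set to leave out CD3+ cells, and mouse plasmacytoid dendritic cells carry B220; the part of these cells in the results was not tested. Library depth was 14231188 to 18194629 counts in naive cells, 9598674 to 61640683 in CD40L + IL-4, where PU.1 cKO replicate 2 was the largest by far, and 22757630 to 73658850 in LPS + IL-4.

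In naive control cells the order of the members per length of transcript, on the deposited log2 RPKM scale, ran from Pou2af1 (8.70 and 8.59) over Pax5 (7.44 and 8.23), Ikzf1 (6.91 and 6.99), Ikzf3 (6.65 and 7.05), Foxo1 (6.59 and 6.50), Bcl11a (5.44 and 5.90), Ebf1 (5.13 and 5.43), Bcl6 (4.84 and 5.14) and Bach2 (4.73 and 5.06) to Pou2f2 (3.62 and 4.91). The neighbours Ikzf1 and Ikzf3 overlapped in this order, as did Ebf1 and Bcl6, Bcl6 and Bach2, and Bach2 and Pou2f2, so their order is not fixed by 2 libraries. The other neighbours did not overlap. Pou2af1 was also highest in control cells of CD40L + IL-4 (10.13 and 9.73) and LPS + IL-4 (8.31 and 8.18), and Bcl6 was lowest there (3.15 and 2.11 in the first culture, 1.46 and 0.75 in the second). Pou2f2, last in naive cells, stood above Bcl11a (5.23 and 4.99) in LPS + IL-4 (5.61 and 5.29), and LPS + IL-4 values were normalised apart from the others by the authors.

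Most of these genes were lower in cultured than in naive control cells. A stage difference was called when the adjusted p was below 0.15 and the change above 1.5-fold, in one edgeR fit of all 24 libraries. By this rule 5 members fell and 1 rose from naive to CD40L + IL-4 (of all 13684 genes tested 48.8% were called, 23.4% lower and 25.4% higher), 7 fell and 1 rose from naive to LPS + IL-4 (63.9% called, 31.3% lower and 32.6% higher), and 5 fell and 1 rose from CD40L + IL-4 to LPS + IL-4 (41.2% called, 20.9% lower and 20.3% higher). Calls were common among all genes, and among the members they leaned to the lower side. CD40L + IL-4 libraries are in one count table and naive and LPS + IL-4 libraries in the other, so table and stage cannot be told apart for comparisons with CD40L + IL-4. In bulk RNA, fewer cells of a type and less RNA per cell cannot be told apart either.

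**Figure D1:**
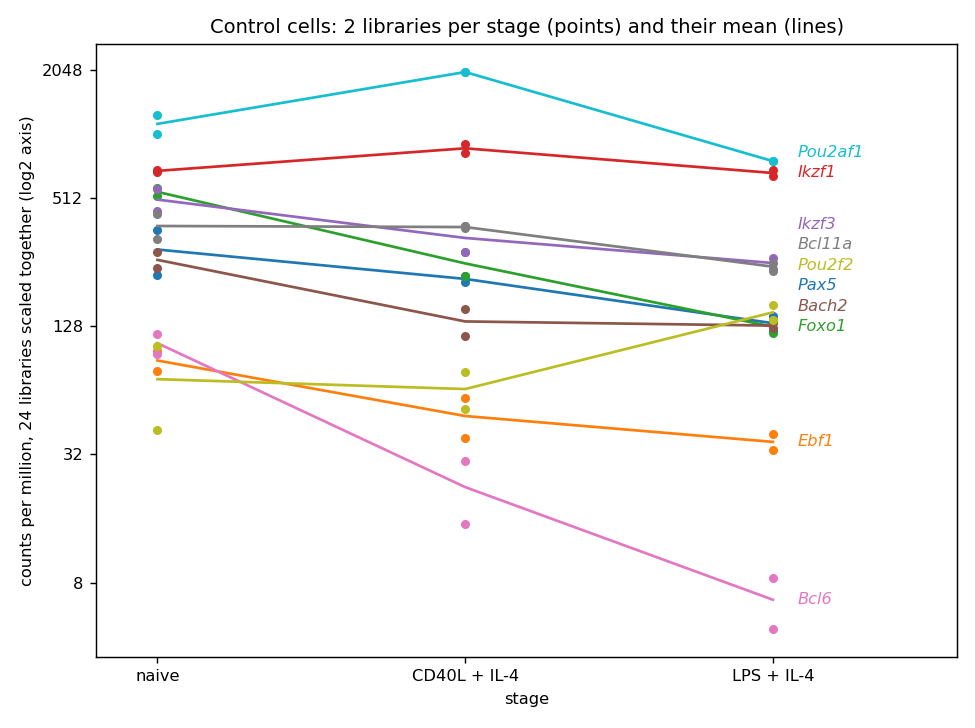
CPM of each member in control cells (log2 axis, 24 libraries scaled together) against stage, with 1 point per library and a line through the mean of the 2 libraries. Bcl6 and Foxo1 descend over the 3 stages, Pou2af1 peaks in CD40L + IL-4 and Pou2f2 is highest in LPS + IL-4.

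Bcl6 changed most. In the common scale of the 24 libraries control cells held 95.1 and 118 CPM when naive, 29.9 and 15.1 with CD40L + IL-4 and 8.46 and 4.85 with LPS + IL-4, and the stages did not overlap. The log2 fold change was -2.24 ± 0.34, adjusted p = 1.55e-05, from naive to CD40L + IL-4 and -4.03 ± 0.36, adjusted p = 7.53e-09, to LPS + IL-4. Foxo1 followed the same order, at 570.0 and 523 CPM (naive), 285 and 219.6 (CD40L + IL-4) and 135 and 119 (LPS + IL-4) (-1.12 ± 0.13, adjusted p = 5.66e-07, and -2.10 ± 0.13, adjusted p = 5.91e-11). Bach2 fell in both cultures to a like level, from 239 and 285 CPM to 154 and 116 (CD40L + IL-4) and 132 and 126 (LPS + IL-4). The cultures overlapped there, and their log2 difference for Bach2 had a 95% interval of -0.39 to 0.26.

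The lineage factors also fell. Ebf1 went from 78.8 and 97.8 CPM to 58.6 and 38.3 in CD40L + IL-4 (-0.86 ± 0.22, adjusted p = 0.00267). In LPS + IL-4 it was at 39.8 and 33.5 CPM (-1.27 ± 0.22, adjusted p = 3.71e-05). Pax5 was at 223 and 363 CPM in naive, 206 and 220.4 with CD40L + IL-4 and 143 and 122 with LPS + IL-4. Its fall passed the rule in LPS + IL-4 (-1.15 ± 0.21, adjusted p = 7.37e-05), while the change to CD40L + IL-4 of -0.46 ± 0.21 was under 1.5-fold. Ikzf3 fell in both (log2 fold change -0.60 ± 0.18 and -0.99 ± 0.18), but the call in CD40L + IL-4 was lost without replicate 2 of either the naive or the CD40L + IL-4 control libraries (log2 fold change -0.42 and -0.41). Bcl11a was called lower in LPS + IL-4 than in naive cells (-0.63 ± 0.12, adjusted p = 7.69e-05), which slipped below 1.5-fold without naive or LPS + IL-4 control replicate 2 (-0.43 and -0.57). Ikzf1 was called in 0 of the 3 stage comparisons, at 677 and 695 CPM in naive cells, 921 and 829 with CD40L + IL-4 and 646 and 695 with LPS + IL-4.

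The octamer pair moved apart. Pou2af1 was at 1254 and 1026 CPM in naive control cells, 2000.0 and 1992 with CD40L + IL-4 and 761 and 764 with LPS + IL-4. It rose in CD40L + IL-4 (0.81 ± 0.12, adjusted p = 1.72e-05) and was lower in LPS + IL-4 than in CD40L + IL-4 (-1.39 ± 0.12, adjusted p = 7.45e-08). Pou2f2 was at 41.5 and 103 CPM (naive), 77.7 and 52.1 (CD40L + IL-4) and 160.2 and 137 (LPS + IL-4). It was higher in LPS + IL-4 than in CD40L + IL-4 (1.19 ± 0.39, adjusted p = 0.0173) and than in naive cells (1.04 ± 0.39, adjusted p = 0.0234). The last call was lost without naive control replicate 1 (log2 fold change 0.53, adjusted p = 0.281), the library with the low Pou2f2 value.

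For the mutants, each stage was fitted apart, and a gene was called when the adjusted p was below 0.15, the change above 1.5-fold and the mean deposited log2 RPKM above 0. In naive cells 3 of the 10 members were called in PU.1 cKO, all lower than control, where 8.4% of 12500 genes were called and 5.24% were called lower. In naive SpiB KO 2 members were called, both lower (6.35% of genes called, 2.9% lower), and in naive PU.1 SpiB DKO 5, all lower (14.1%, 6.7% lower). In CD40L + IL-4 3 members were called lower and 1 higher in PU.1 cKO (9.36% of 12721 genes, 5.45% lower and 3.91% higher). There 0 were called in SpiB KO by edgeR (0.11% of genes, 0.0393% lower, and 459 genes at an unadjusted p under 0.05), by DESeq2 and by voom, and 6 lower and 1 higher in PU.1 SpiB DKO (13.7%, 7.82% lower and 5.84% higher). In LPS + IL-4 1 was called lower and 2 higher in PU.1 cKO (6.67% of 12445 genes, 2.74% lower and 3.93% higher). In LPS + IL-4 SpiB KO 0 were called by edgeR (2.29% of genes, and 1664 genes at an unadjusted p under 0.05), by DESeq2 and by voom, and in the libraries labelled PU.1 SpiB DKO 2 were called higher (13.6%, 8.76% higher). The share called was well above that of all genes in the naive and CD40L + IL-4 floxed Cre mutants. It was also above that share in naive SpiB KO and in LPS + IL-4 PU.1 cKO. In the LPS + IL-4 libraries labelled PU.1 SpiB DKO it was near that of all genes. The members were chosen with earlier results of these data known, so these shares are a description and no test. The 2 libraries of a mutant lay apart from both controls for all 10 members in CD40L + IL-4 PU.1 SpiB DKO and in LPS + IL-4 PU.1 cKO, which was the case for 56.4% and 50% of all genes. The median log2 fold change of the members in PU.1 SpiB DKO was -0.60 (naive), -0.91 (CD40L + IL-4) and -0.02 (LPS + IL-4), against 0.00 to 0.01 over all genes. The calls of the 3 mutants at a stage share the same 2 control libraries.

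**Figure D2:**
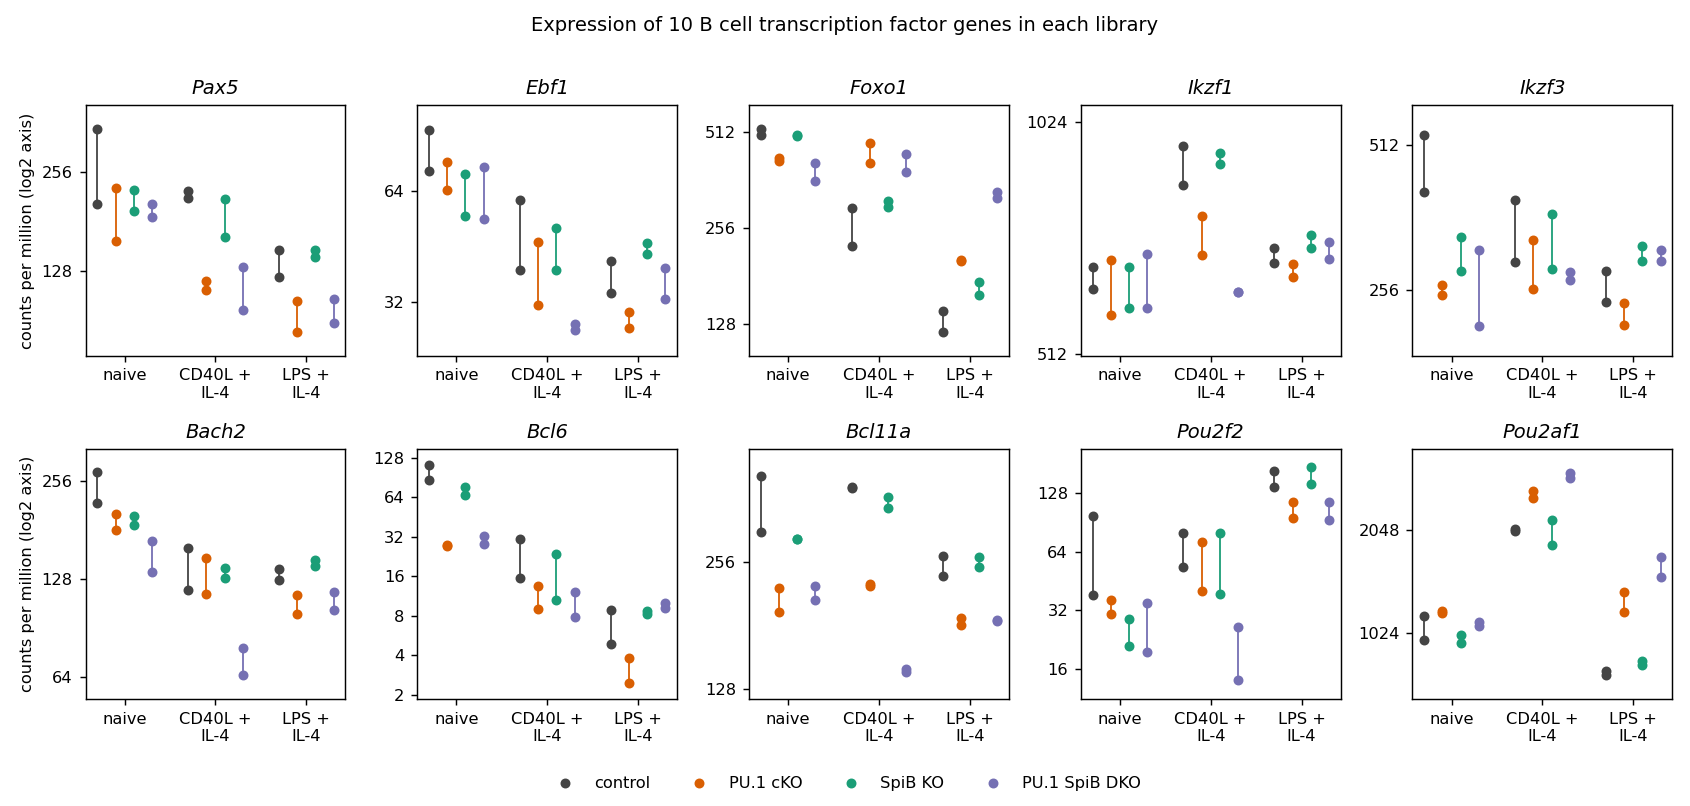
CPM of the 10 members in every library (log2 axis), 1 panel per gene, by stage and with colour for genotype; each vertical line joins the 2 libraries of a group. Bcl6, Bcl11a, Pax5 and Bach2 sit below control in 1 or more mutants, and Foxo1 and Pou2af1 sit above control in the cultured floxed Cre mutant libraries.

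**Figure D3:**
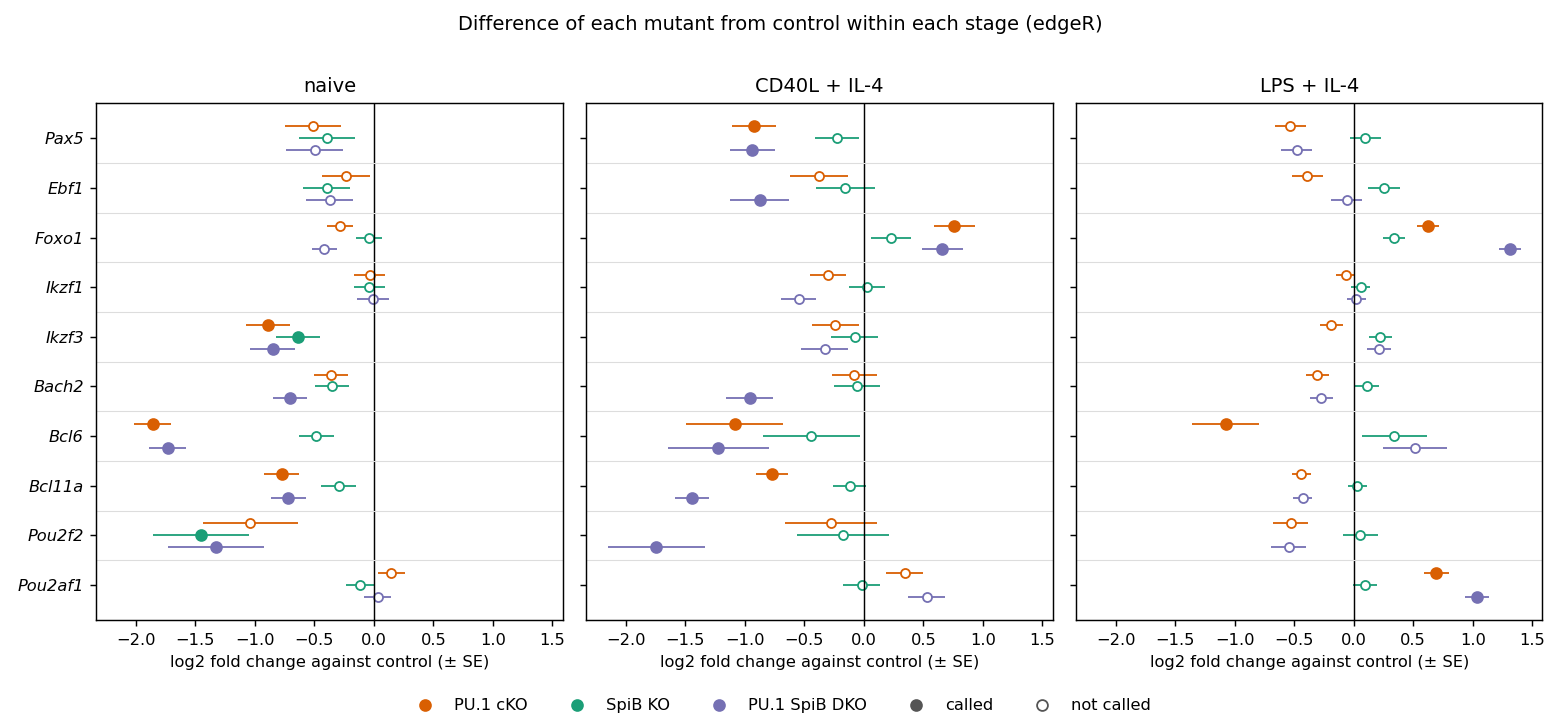
Log2 fold change of each mutant against control (x axis, with SE as bars) for each member and stage; filled points passed the rule for a call. SpiB KO has filled points only for Ikzf3 and Pou2f2 in naive cells, and Foxo1 lies left of 0 in the naive floxed Cre mutants and right of 0 in both cultures.

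Bcl6, the germinal centre repressor, gave the largest fall among the members in the naive floxed Cre mutants. It was at 87.4 and 113 CPM (control), 27.9 and 27.4 (PU.1 cKO), 66.6 and 76.8 (SpiB KO) and 28.0 and 32.2 (PU.1 SpiB DKO). The floxed Cre mutants lay far below the other 4 libraries, and SpiB KO lay between them and control without overlap. The change was 3.62-fold lower in PU.1 cKO (log2 fold change -1.86 ± 0.16, adjusted p = 0.000165) and 3.32-fold lower in PU.1 SpiB DKO (-1.73 ± 0.16, adjusted p = 0.000104). These were called with each library left out in turn. In SpiB KO the log2 difference of -0.48 ± 0.15, adjusted p = 0.101, was under 1.5-fold. Bcl6 is also a marker of germinal centre B cells. The 5 other markers of these cells on the list, summed after the values were seen, were at 18.3 to 31.2 CPM in naive control, 8.21 to 8.47 in PU.1 cKO, 20.8 to 22.7 in SpiB KO and 9.85 to 29.0 in PU.1 SpiB DKO, each of the 5 below 10 CPM in every naive library and none at 0. PU.1 cKO lay below control and PU.1 SpiB DKO overlapped it. By the rule 3 of the 5 fell in PU.1 cKO (median log2 fold change -1.94 against -0.01 over all genes) and 0 in PU.1 SpiB DKO (-0.33) and SpiB KO (-0.30), and the part of such cells in the fall of Bcl6 was not tested.

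In culture Bcl6 was low throughout. CD40L + IL-4 gave 31.0 and 15.4 CPM (control), 13.5 and 8.95 (PU.1 cKO), 23.9 and 10.6 (SpiB KO) and 12.2 and 7.81 (PU.1 SpiB DKO). The floxed Cre mutants lay below control, and SpiB KO overlapped it. The falls of -1.09 ± 0.41, adjusted p = 0.142, and -1.22 ± 0.42, adjusted p = 0.0838, were not called without control replicate 1 (log2 fold change -0.48 and -0.63), nor without replicate 2 of the mutant (-0.77 and -0.92), nor, for PU.1 cKO, without its replicate 1 (-1.35, adjusted p = 0.156). LPS + IL-4 gave 8.82 and 4.91 CPM (control), 3.81 and 2.47 (PU.1 cKO), 8.69 and 8.31 (SpiB KO) and 10.0 and 9.20 (the libraries labelled PU.1 SpiB DKO). PU.1 cKO lay below the other 6 libraries (-1.07 ± 0.28, adjusted p = 0.0367), a call lost without control replicate 1 (-0.62) or PU.1 cKO replicate 2 (-0.83). The libraries labelled PU.1 SpiB DKO lay above control (0.51 ± 0.27, adjusted p = 0.177), which was not called, and with the replicate as a block the value was 0.54 with an adjusted p of 0.0419, still under 1.5-fold.

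Bach2, the partner repressor of the plasma cell program, was at 220.0 and 273 CPM (naive control), 181 and 202 (PU.1 cKO), 187 and 199 (SpiB KO) and 134 and 168 (PU.1 SpiB DKO). All 6 mutant libraries lay below both controls, and PU.1 SpiB DKO lay below the single mutants. It fell in PU.1 SpiB DKO alone by the rule (-0.71 ± 0.14, adjusted p = 0.00839), a call that went under 1.5-fold without control replicate 2 (-0.54) or PU.1 SpiB DKO replicate 1 (-0.55). The single mutants gave log2 values of -0.36 ± 0.14, adjusted p = 0.166 (PU.1 cKO) and -0.35 ± 0.14, adjusted p = 0.212 (SpiB KO). In CD40L + IL-4 control had 159 and 118 CPM, PU.1 cKO 148 and 115, SpiB KO 138 and 129 and PU.1 SpiB DKO 78.5 and 64.6. The single mutants overlapped control and PU.1 SpiB DKO lay below all 6 other libraries, 1.94-fold lower than control (-0.96 ± 0.20, adjusted p = 0.00908). In LPS + IL-4 the values lay closer together, at 138 and 127 CPM (control), 114 and 100.2 (PU.1 cKO), 146 and 139.9 (SpiB KO) and 117 and 102 for the libraries labelled PU.1 SpiB DKO, with log2 values of -0.31 ± 0.10, 0.11 ± 0.10 and -0.27 ± 0.10, under 1.5-fold.

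Bcl11a, the zinc finger repressor, lay below control in the floxed Cre mutant libraries of every stage. PU.1 SpiB DKO lay below PU.1 cKO only in CD40L + IL-4, and the 2 overlapped in naive cells and in LPS + IL-4. Naive control had 301 and 409.5 CPM, PU.1 cKO 195 and 221, SpiB KO 290.3 and 289 and PU.1 SpiB DKO 207 and 224. It fell in PU.1 cKO (-0.77 ± 0.15, adjusted p = 0.0141) and PU.1 SpiB DKO (-0.72 ± 0.15, adjusted p = 0.00835), under 1.5-fold without naive control replicate 2 (-0.53 and -0.48). In CD40L + IL-4 the values were 384 and 386 (control), 226 and 225 (PU.1 cKO), 365 and 343 (SpiB KO) and 140.3 and 143 (PU.1 SpiB DKO). There the 3 mutants did not overlap each other or control, with SpiB KO just below control. The fall was 1.71-fold in PU.1 cKO (-0.77 ± 0.14, adjusted p = 0.00588) and 2.72-fold in PU.1 SpiB DKO (-1.44 ± 0.14, adjusted p = 9.3e-05), and both were called with each library left out. In LPS + IL-4 control had 264 and 236 CPM, PU.1 cKO 188 and 181, SpiB KO 248 and 263 and the libraries labelled PU.1 SpiB DKO 186 and 186. These last libraries and PU.1 cKO lay below control by -0.43 ± 0.08, adjusted p = 0.00354, and -0.44 ± 0.08, adjusted p = 0.00717, past the adjusted p and under 1.5-fold.

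Pax5, the commitment factor, was at 205 and 347 CPM (naive control), 159 and 229 (PU.1 cKO), 195 and 226 (SpiB KO) and 187 and 205 (PU.1 SpiB DKO). The 2 control libraries differed more from each other than control replicate 1 did from any mutant library, and 0 of the 3 naive mutants were called for Pax5 (log2 fold change -0.51 ± 0.24, adjusted p = 0.229, in PU.1 cKO and -0.50 ± 0.24, adjusted p = 0.169, in PU.1 SpiB DKO). In CD40L + IL-4 Pax5 was at 214 and 225 CPM (control), 119 and 113 (PU.1 cKO), 212 and 163 (SpiB KO) and 132 and 97.7 (PU.1 SpiB DKO). The floxed Cre mutants lay below the other 4 libraries. It fell 1.89-fold in PU.1 cKO (-0.92 ± 0.19, adjusted p = 0.0116) and 1.91-fold in PU.1 SpiB DKO (-0.94 ± 0.19, adjusted p = 0.00785), called with each library left out. In LPS + IL-4 control had 149 and 123 CPM, PU.1 cKO 104 and 83.7, SpiB KO 149 and 142 and the libraries labelled PU.1 SpiB DKO 106 and 89.3. The split was the same and smaller: -0.53 ± 0.13, adjusted p = 0.0297, in PU.1 cKO and -0.48 ± 0.13, adjusted p = 0.0209, in the libraries labelled PU.1 SpiB DKO, under 1.5-fold.

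Ebf1, the other commitment factor, was at 72.5 and 93.6 CPM (naive control), 64.4 and 76.8 (PU.1 cKO), 54.7 and 71.3 (SpiB KO) and 53.9 and 74.6 (PU.1 SpiB DKO), and 0 of the naive mutants were called for it. In CD40L + IL-4 it was at 60.7 and 39.2 CPM (control), 46.6 and 31.4 (PU.1 cKO), 50.9 and 39.2 (SpiB KO) and 27.8 and 26.8 (PU.1 SpiB DKO). The single mutants overlapped control and PU.1 SpiB DKO lay below all. That fall (-0.87 ± 0.25, adjusted p = 0.0418) was lost without control replicate 1 (-0.52, adjusted p = 0.303) or PU.1 SpiB DKO replicate 2 (-0.83, adjusted p = 0.169). In LPS + IL-4 control had 41.5 and 33.9 CPM of Ebf1, PU.1 cKO 30.1 and 27.3, SpiB KO 46.3 and 43.3 and the libraries labelled PU.1 SpiB DKO 39.5 and 32.6. The PU.1 cKO libraries lay below control (-0.39 ± 0.13, adjusted p = 0.0978), those of SpiB KO above it (0.25 ± 0.13, adjusted p = 0.458) and the libraries labelled PU.1 SpiB DKO overlapped it (-0.06 ± 0.13, adjusted p = 0.767), with 0 called.

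Foxo1 lay on different sides of control in naive and in cultured floxed Cre mutants. In naive cells it was at 524 and 500.4 CPM (control), 416 and 425 (PU.1 cKO), 496 and 501 (SpiB KO) and 358 and 410.0 (PU.1 SpiB DKO). The floxed Cre mutants lay below the other 4 libraries by less than 1.5-fold (-0.28 ± 0.11, adjusted p = 0.149, in PU.1 cKO and -0.42 ± 0.11, adjusted p = 0.0249, in PU.1 SpiB DKO). In CD40L + IL-4 control had 295 and 225 CPM, PU.1 cKO 471 and 409.6, SpiB KO 298 and 311 and PU.1 SpiB DKO 437 and 384. Here the floxed Cre mutants lay above the rest. Foxo1 rose 1.69-fold in PU.1 cKO (0.76 ± 0.17, adjusted p = 0.0204) and 1.58-fold in PU.1 SpiB DKO (0.66 ± 0.17, adjusted p = 0.0293). Both went under 1.5-fold without control replicate 2 (0.58 and 0.47), and the second also without PU.1 SpiB DKO replicate 1 (0.57).

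LPS + IL-4 gave Foxo1 its clearest gradient. Control had 141 and 121 CPM, SpiB KO 157 and 173, PU.1 cKO 201 and 203 and the libraries labelled PU.1 SpiB DKO 332 and 318, and no 2 of these groups overlapped. Foxo1 rose 1.54-fold in PU.1 cKO (0.63 ± 0.09, adjusted p = 0.00219) and 2.48-fold in the libraries labelled PU.1 SpiB DKO (1.31 ± 0.09, adjusted p = 1.53e-05). The call in PU.1 cKO went under 1.5-fold without control replicate 2 (0.52), and the other was made with each library left out. SpiB KO gave 0.34 ± 0.09, adjusted p = 0.118, under 1.5-fold. On the common scale of the 24 libraries those labelled PU.1 SpiB DKO held 305 and 296 CPM, still below the 377 and 438 of naive PU.1 SpiB DKO.

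Ikzf3 was lower in all 3 naive mutants. It was at 408 and 537 CPM (control), 249 and 262 (PU.1 cKO), 279 and 329 (SpiB KO) and 215 and 309 (PU.1 SpiB DKO). No mutant library reached the lower control, and PU.1 SpiB DKO overlapped both single mutants. The log2 fold change was -0.85 ± 0.19, adjusted p = 0.0118, in PU.1 SpiB DKO, -0.89 ± 0.19, adjusted p = 0.0231, in PU.1 cKO and -0.64 ± 0.19, adjusted p = 0.0852, in SpiB KO. The call in SpiB KO was lost without control replicate 2 (-0.43), SpiB KO replicate 1 (-0.52) or SpiB KO replicate 2 (-0.76, adjusted p = 0.171). That in PU.1 cKO was lost without its replicate 1 (-0.85, adjusted p = 0.162). In the cultures 0 of the mutants were called for Ikzf3, and the log2 values ran from -0.33 ± 0.20 (PU.1 SpiB DKO in CD40L + IL-4) to 0.22 ± 0.10 (SpiB KO in LPS + IL-4).

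Ikzf1 was called in 0 of the 9 comparisons with control. Its naive libraries ran from 576 CPM in PU.1 cKO to 692 CPM in PU.1 SpiB DKO, with control at 622 and 664. The 95% intervals of the naive log2 differences were -0.30 to 0.29 in PU.1 SpiB DKO, -0.33 to 0.26 in PU.1 cKO and -0.33 to 0.26 in SpiB KO. The lowest value against control was in CD40L + IL-4 PU.1 SpiB DKO, at 617 and 616 CPM against 955 and 848 (-0.55 ± 0.15, adjusted p = 0.0344), under 1.5-fold.

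Pou2f2 had the widest replicates. In naive cells control had 38.2 and 98.4 CPM, PU.1 cKO 30.4 and 36.1, SpiB KO 20.9 and 28.9 and PU.1 SpiB DKO 19.4 and 35.0. The lower control library was only just above the highest mutant library, and the other control library was far above both. PU.1 cKO also lay below both controls (edgeR log2 fold change -1.04, adjusted p = 0.156), which was not called. The falls in SpiB KO (-1.45 ± 0.41, adjusted p = 0.0734) and PU.1 SpiB DKO (-1.32 ± 0.40, adjusted p = 0.047) were lost without control replicate 2 (-0.61 and -0.48), and also without SpiB KO replicate 1 (-1.24), SpiB KO replicate 2 (-1.70) and PU.1 SpiB DKO replicate 1 (-0.96), each for its own comparison. In CD40L + IL-4 Pou2f2 was at 80.5 and 53.2 CPM (control), 71.8 and 40.0 (PU.1 cKO), 80.2 and 38.7 (SpiB KO) and 26.2 and 13.9 (PU.1 SpiB DKO). The single mutants overlapped control, and both PU.1 SpiB DKO libraries lay below all others. That fall of 3.35-fold (-1.74 ± 0.41, adjusted p = 0.0174) was called with each library left out. In LPS + IL-4 Pou2f2 was at 167 and 139 CPM (control), 115 and 96.1 (PU.1 cKO), 174 and 142 (SpiB KO) and 116 and 93.4 (the libraries labelled PU.1 SpiB DKO). PU.1 cKO and the latter lay below control by -0.53 ± 0.15 and -0.55 ± 0.15, under 1.5-fold.

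Its coactivator Pou2af1 went up where it differed. Naive libraries were alike, from 958 CPM in SpiB KO to 1186 CPM in PU.1 cKO. In CD40L + IL-4 it was at 2072 and 2037 CPM (control), 2539 and 2676 (PU.1 cKO), 1858 and 2197 (SpiB KO) and 2919.5 and 3016 (PU.1 SpiB DKO). The floxed Cre mutants lay above the rest, but by less than 1.5-fold (0.34 ± 0.15, adjusted p = 0.218, and 0.53 ± 0.16, adjusted p = 0.0459). In LPS + IL-4 control had 793 and 773 CPM, PU.1 cKO 1184 and 1350.1, SpiB KO 828 and 847 and the libraries labelled PU.1 SpiB DKO 1713 and 1495. It rose 1.62-fold in PU.1 cKO (0.69 ± 0.10, adjusted p = 0.00228) and 2.05-fold in the libraries labelled PU.1 SpiB DKO (1.03 ± 0.10, adjusted p = 9.71e-05), called with each library left out. On the common scale these last libraries, at 1576 and 1393 CPM, were above every naive library, and control in LPS + IL-4 was below every naive library.

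The PU.1 SpiB DKO was compared with each single mutant to ask whether the second loss added to the first. In naive cells and in LPS + IL-4, Spi1 counts were higher in PU.1 SpiB DKO than in PU.1 cKO (above). There the comparison with PU.1 cKO differed in Spi1 as well as in Spib, so it cannot answer this question. Against PU.1 cKO, 0 members were called in naive cells by edgeR (7.21% of genes called, and 2852 genes at an unadjusted p under 0.05), by DESeq2 and by voom. In CD40L + IL-4 3 were called lower (3.01% of genes, 1.6% lower): Bach2 (-0.88 ± 0.20, adjusted p = 0.0522), Bcl11a (-0.67 ± 0.14, adjusted p = 0.0373) and Pou2f2 (-1.47 ± 0.40, adjusted p = 0.116). Pax5 was not called there, with a 95% interval of the log2 difference of -0.42 to 0.39. None of the 3 calls was made with each library left out: without PU.1 cKO replicate 1 or PU.1 SpiB DKO replicate 2 the adjusted p was 0.281 and 0.295 for Bach2, 0.184 and 0.204 for Bcl11a and 0.492 and 0.494 for Pou2f2, and without either other library of the pair that of Bcl11a was 0.172 and 0.211. In LPS + IL-4 2 were higher in the libraries labelled PU.1 SpiB DKO than in PU.1 cKO (8.1% of genes, 5.72% higher), Foxo1 (0.69 ± 0.09, adjusted p = 0.00218) and Bcl6 (1.59 ± 0.28, adjusted p = 0.00611), with each library left out in turn.

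Against SpiB KO, Bcl6 alone was called in naive cells (1.97% of genes, 0.792% lower), and it fell by 2.38-fold (-1.25 ± 0.15, adjusted p = 0.00474). In CD40L + IL-4 5 members were lower than in SpiB KO (11.4% of genes, 6.18% lower), namely Bcl11a (-1.32 ± 0.14, adjusted p = 0.000244), Pou2f2 (-1.57 ± 0.41, adjusted p = 0.0338), Bach2 (-0.90 ± 0.20, adjusted p = 0.0146), Ebf1 (-0.72 ± 0.25, adjusted p = 0.0991) and Pax5 (-0.71 ± 0.19, adjusted p = 0.0357). Bcl11a and Bach2 were called with each library left out, and without SpiB KO replicate 1 or PU.1 SpiB DKO replicate 2 only 2 of the 5 calls were made, whereas without SpiB KO replicate 2 the members called were 8. In LPS + IL-4 Foxo1 (0.98 ± 0.09, adjusted p = 0.000184) and Pou2af1 (0.94 ± 0.10, adjusted p = 0.000392) were higher and Pou2f2 (-0.60 ± 0.15, adjusted p = 0.0218) lower (8.09% of genes called, 5.19% higher and 2.9% lower), and the last went under 1.5-fold without SpiB KO replicate 1 (-0.47) or replicate 2 of the libraries labelled PU.1 SpiB DKO (-0.48).

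Whether the combined loss differed from the sum of the single losses on the log2 scale was tested as an interaction. It was called for 0 members by edgeR in naive cells (0.664% of genes, 1416 at an unadjusted p under 0.05), CD40L + IL-4 (1.03%, 1010 genes) and LPS + IL-4 (1.16%, 1380 genes). DESeq2 and voom called 0 members in naive cells and CD40L + IL-4, while for LPS + IL-4 DESeq2 called 1 and voom 0. Its largest values were those of Bcl6 in LPS + IL-4 (1.25, 95% interval 0.38 to 2.12), Pou2f2 in naive cells (1.17, -0.11 to 2.44) and Pou2f2 in CD40L + IL-4 (-1.30, -2.52 to -0.07). Same-numbered libraries deviated together in LPS + IL-4, and with the replicate as a block the interaction of Bcl6 there was 1.27 with an adjusted p of 0.0402, which was past the rule. In naive cells the edgeR fit with the block gave interactions of 0.64 for Ikzf3, 0.6 for Bcl6 and 1.01 for Pou2f2. Their adjusted p was 0.0505, 0.0688 and 0.113, which was also past the rule. Counts with the block at each stage are given below.

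The effect of a genotype was next compared between stages, by testing the difference of its log2 fold changes in the fit of all 24 libraries. For PU.1 cKO, 1 member was called between CD40L + IL-4 and naive (8.21% of genes, 4.3% higher), Foxo1 (1.06 ± 0.18, adjusted p = 0.00226). The same gene was called between LPS + IL-4 and naive (0.89 ± 0.18, adjusted p = 0.0104, where 5.88% of genes were called and 3.56% higher), and 0 members between the cultures by edgeR (2.97% of genes, 1684 at an unadjusted p under 0.05) and DESeq2, and 1 by voom. For PU.1 SpiB DKO, Foxo1 (1.09 ± 0.18, adjusted p = 0.000414) and Bcl11a (-0.71 ± 0.17, adjusted p = 0.00846) differed between CD40L + IL-4 and naive (14.4% of genes, 5.79% higher and 8.6% lower). The fall of Bcl11a was thus larger in CD40L + IL-4 than in naive cells, although the difference went under 1.5-fold without naive control replicate 1 (-0.53). Spi1 was also lower in the CD40L + IL-4 than in the naive PU.1 SpiB DKO libraries (32.5 and 25.6 against 103 and 110.2 CPM, each within its stage), and the part of an incomplete deletion in naive cells in these differences was not tested.

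Between LPS + IL-4 and naive, the effect in PU.1 SpiB DKO was higher for Bcl6 (2.19 ± 0.47, adjusted p = 0.00352), Foxo1 (1.67 ± 0.18, adjusted p = 7.05e-06), Ikzf3 (0.99 ± 0.25, adjusted p = 0.0115) and Pou2af1 (0.94 ± 0.17, adjusted p = 0.00107), where 23.7% of genes were called and 11% higher. These 4 were called with each library left out. Between the cultures, the effect was higher in LPS + IL-4 for Bcl6 (1.67 ± 0.50, adjusted p = 0.0298), Bcl11a (0.93 ± 0.17, adjusted p = 0.00152), Ebf1 (0.73 ± 0.31, adjusted p = 0.122) and Bach2 (0.60 ± 0.22, adjusted p = 0.0739), where 22.5% of genes were called and 11% higher. Of these only Bcl11a was called with each library left out. The call was lost without any 1 of 3 libraries for Bcl6, of 5 for Ebf1 and of 4 for Bach2, and without CD40L + IL-4 control replicate 1 the values were 1.08, 0.39 and 0.38. The libraries labelled PU.1 SpiB DKO in LPS + IL-4 kept Spi1 counts near control (above), and the part of that in these differences was not tested. For SpiB KO, Ikzf3 differed between LPS + IL-4 and naive (0.85 ± 0.25, adjusted p = 0.0996, where 5.36% of genes were called and 2.81% higher), a call lost without any 1 of 5 of the 8 libraries. SpiB KO had 0 members called between CD40L + IL-4 and naive (2.13% of genes, 1356 at an unadjusted p under 0.05) and between the cultures (0% of genes, 421) by edgeR, and likewise by DESeq2 and voom.

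The 2 libraries of a group differed in the same direction across genotypes for several members. Replicate 2 of Pou2f2 was higher than replicate 1 in 4 of 4 naive groups, by 0.26 to 1.42 on the log2 CPM scale, and lower in 4 of 4 groups of CD40L + IL-4 (-1.05 to -0.61) and of LPS + IL-4 (-0.34 to -0.31). Pax5, Ebf1, Ikzf1, Ikzf3, Bach2 and Bcl11a were also higher in replicate 2 in 4 of 4 naive groups, and Bcl6 was lower in replicate 2 in 4 of 4 groups of each culture. Over 8007 genes with at least 5 CPM in every library, the median difference also moved with transcript length. In the 4 naive groups it was -0.07 to -0.04 in the shortest of 4 length classes and 0.08 (PU.1 cKO) to 0.26 (PU.1 SpiB DKO) in the longest. In the 4 groups of CD40L + IL-4 it was 0.08 to 0.21 in the shortest class and -0.29 (control) to 0.05 (PU.1 SpiB DKO) in the longest, and in LPS + IL-4 -0.01 to 0.07 and -0.12 to -0.10. In CD40L + IL-4 PU.1 SpiB DKO the median was thus above 0 in all 4 classes, while Pou2f2 differed by -0.76 there. Exonic lengths of the members ran from 2548 bases for Pou2af1, whose replicates differed by at most 0.24, to 8886 bases for Bach2 (-0.45 to 0.42). Bcl6, with 3525 bases, differed by -1.14 to -0.48 in CD40L + IL-4. The size of the difference thus did not follow length in these members. What made the replicates differ was not tested. The numbers shared by the genotypes do not stand for a shared animal or day in the labels.

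**Figure D4:**
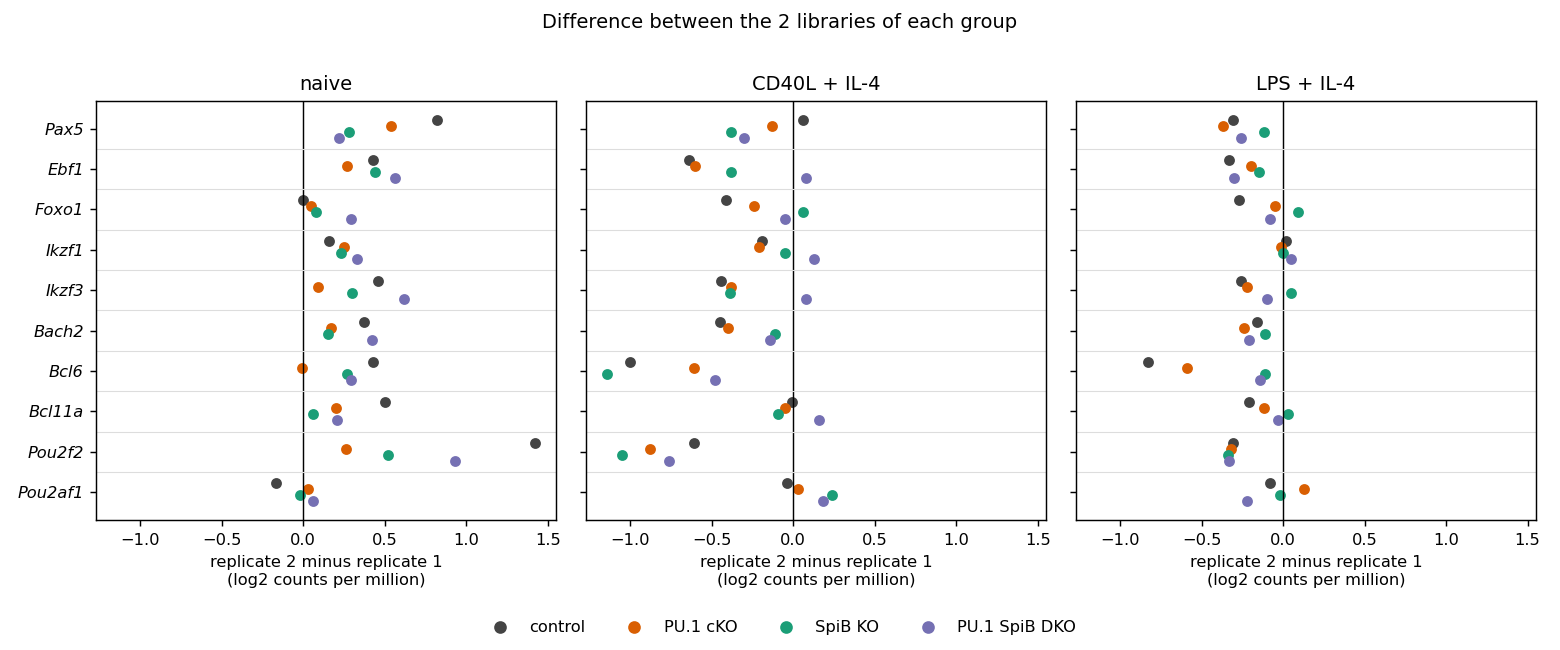
Difference of log2 CPM between replicate 2 and replicate 1 (x axis) for each member, with 1 point per genotype and 1 panel per stage. Pou2f2 reaches 1.42 in naive control and lies left of 0 in all 8 cultured groups, while Pou2af1 stays within 0.24 of 0.

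Genes that these factors are known to act on were then counted from named lists. Of 12 B lineage receptor and adaptor genes 6 fell and 0 rose in CD40L + IL-4 PU.1 cKO (5.45% of all genes fell), with a median log2 fold change of -0.61 against -0.01 over all genes, and 8 fell and 0 rose in CD40L + IL-4 PU.1 SpiB DKO (7.82%), at a median of -0.81 against 0.00. The largest falls in the latter were those of Fcrla (-2.33 ± 0.30, adjusted p = 0.000619), an Fc receptor-like protein inside B cells, and Ms4a1 (-1.65 ± 0.24, adjusted p = 0.00117), which encodes CD20. Cd37, a tetraspanin of B cells, fell in PU.1 SpiB DKO at every stage (-0.62 ± 0.13 in naive, -1.27 ± 0.20 with CD40L + IL-4 and -0.64 ± 0.10 with LPS + IL-4). In naive cells 2, 2 and 3 of the 12 fell in PU.1 cKO, SpiB KO and PU.1 SpiB DKO (5.24%, 2.9% and 6.7% of all genes). In LPS + IL-4 4 fell and 0 rose in PU.1 cKO (2.74% of all genes fell), 1 fell and 1 rose in SpiB KO (0.667% and 1.62%), and 4 fell and 2 rose in the libraries labelled PU.1 SpiB DKO (4.81% and 8.76%). The 2 that rose in the last were Cd22 (0.66 ± 0.12), an inhibitory receptor, and Cd79a (0.66 ± 0.12), a signalling chain of the B cell receptor.

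Plasma cell genes, which Pax5, Bach2 or Bcl6 are known to oppose, were higher in both cultures of the floxed Cre mutants. In CD40L + IL-4 7 of 12 rose and 0 fell in PU.1 cKO (3.91% of all genes rose) and 8 of 12 rose and 0 fell in PU.1 SpiB DKO (5.84%), with medians of 1.68 and 1.82. In LPS + IL-4 8 of 11 rose and 0 fell in PU.1 cKO (3.93%) and in the libraries labelled PU.1 SpiB DKO (8.76%), with medians of 0.97 and 1.58. The median over all genes was -0.01 to 0.01 in these 4 comparisons. Cd28, a costimulatory receptor of T cells and plasma cells, rose in PU.1 SpiB DKO at every stage (3.46 ± 0.27 in naive, 3.31 ± 0.45 with CD40L + IL-4 and 4.60 ± 0.32 with LPS + IL-4), and so did Ell2, an elongation factor of antibody secretion (0.62 ± 0.17, 2.14 ± 0.20 and 2.59 ± 0.11), and Fkbp11, a chaperone of secretory cells (1.15 ± 0.32, 1.84 ± 0.26 and 1.32 ± 0.19). In naive PU.1 SpiB DKO 4 of 11 rose (7.39% of all genes), with T cell and dendritic markers also higher there, whose part was not tested; in naive SpiB KO 2 of 11 rose (3.46%). In naive PU.1 cKO 1 of 11 rose and 2 fell (3.16% and 5.24%).

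Foxo1 targets moved both ways in the cultured libraries labelled PU.1 SpiB DKO, the only mutant libraries for which their counts are given here. Of 12 tested over the stages, 11 fell and 1 rose in control cells from naive to CD40L + IL-4 (23.4% of all genes fell and 25.4% rose) and likewise to LPS + IL-4 (31.3% and 32.6%), and Foxo1 itself fell in both. In CD40L + IL-4 PU.1 SpiB DKO, where Foxo1 rose, 1 of 11 rose and 3 fell (5.84% and 7.82% of all genes), with a median log2 fold change of -0.50 against 0.00 over all genes. Those that fell included the stress-induced Sesn1 (-0.88 ± 0.23, adjusted p = 0.0302) and the cell cycle inhibitor Cdkn1b (-0.61 ± 0.22, adjusted p = 0.0875). In LPS + IL-4, in the libraries labelled PU.1 SpiB DKO, 4 of 11 rose and 1 fell (8.76% and 4.81% of all genes), with a median of 0.35 against 0.01 over all genes. Those that rose included the egress receptor S1pr1 (1.20 ± 0.22), the kinase inhibitor Pik3ip1 (1.01 ± 0.34) and Klf2 (0.94 ± 0.24), a factor of quiescence.

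Of 16 paralogs of the members only 6 or 7 passed the filter within a stage. Results for them are given here only for LPS + IL-4 SpiB KO and the LPS + IL-4 libraries labelled PU.1 SpiB DKO. In LPS + IL-4 3 of 6 rose in the libraries labelled PU.1 SpiB DKO (8.76% of all genes): Bach1 (0.96 ± 0.18, adjusted p = 0.00377), Bcl6b (0.68 ± 0.21, adjusted p = 0.0336) and Foxo4 (0.59 ± 0.14, adjusted p = 0.00961), and Bcl6b rose in SpiB KO (0.85 ± 0.21, adjusted p = 0.0844, where 1.62% of all genes rose).

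Over the 12 groups of genotype and stage, the members were also set side by side by the correlation of their mean log2 CPM. This is a description over groups that share count tables. The closest pairs were Ebf1 and Bach2 (Pearson r = 0.945), Pax5 and Ebf1 (0.912) and Ebf1 and Bcl6 (0.899), and the most opposed were Foxo1 and Pou2f2 (-0.792). Among all genes tested, the 2 most like each member were Twf2 and Tec for Pax5 (both 0.981), Adcy7 and Ezh1 for Ebf1 (0.980 and 0.979), Msi2 and Derl1 for Foxo1 (0.983 and 0.972), and Ap4m1 and Tacc1 for Ikzf1 (0.945 and 0.921). They were Arhgap25 and Map3k11 for Ikzf3 (0.937 and 0.920), Vps11 and Epg5 for Bach2 (0.979 and 0.973), Tmem198b and Khnyn for Bcl6 (0.983 and 0.978), and Dapp1 and Lgmn for Bcl11a (0.986 and 0.961). They were 9930021J03Rik and Wnk1 for Pou2f2 (0.977 and 0.976) and Cradd and Gem for Pou2af1 (0.987 and 0.956). Pax5 spanned 1.67 log2 units over the 12 groups and Bcl6 5.13, while Ikzf1 spanned 0.58, the least of the 10.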

How the data were processed

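RNA from the B cells was sequenced on an Illumina NextSeq, and the authors aligned reads with Subread to GRCm38, kept uniquely mapped reads and counted them over RefSeq exons with featureCounts (versions not given in the sources used here). The deposited tables hold raw counts per gene, CD40L + IL-4 in one table and naive and LPS + IL-4 in the other, and the log2 RPKM values that the authors made with limma, LPS + IL-4 apart from the other stages. Entries without a symbol, 517 with 0.162% of the counts, were kept in the edgeR fits. They were left out only where the 2 libraries of a group were set against each other by transcript length and member.

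Counts were tested with edgeR 4.0.16 (quasi-likelihood, TMM scaling, R 4.3.3) on genes with 0.5 CPM in at least 2 libraries. Each stage was fitted over its 8 libraries, and stages were compared in one fit of all 24. Adjusted p-values are by Benjamini-Hochberg over all genes tested, and values after ± are standard errors of the log2 fold change unless stated. A call within a stage needed an adjusted p under 0.15, a fold over 1.5 and a mean log2 RPKM above 0, and between stages only the first pair. The study's methods set the filter, the p and the fold, and there used voom, which is an alternative here. An exact permutation test of 2 against 2 libraries cannot go below p = 0.333, so none was run. Counts of 2 libraries of a group differed by more than counting noise in all 12 groups.

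The members and lists were chosen with earlier results of these data known. All 10 members are named, with Spi1 and Spib as the label check and the 2 genes most alike in pattern. A list gene was to be named where it was called in PU.1 SpiB DKO at every stage, and otherwise the 2 with the largest change. Fcrla, Ms4a1, Cd22, Cd79a, S1pr1, Pik3ip1, Klf2, Sesn1, Cdkn1b and the paralogs were named after their values were seen. Values of some list genes, which the counts include, are not reported here.

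Replicate numbers are shared by the groups. Correlations of the deviations of same-numbered libraries were 0.386 to 0.514 in LPS + IL-4, 0.0918 to 0.25 in naive cells and -0.0702 to 0.266 in CD40L + IL-4. Over all genes a pairing was thus taken as borne out only in LPS + IL-4, and the weaker values in naive cells were also all above 0. Several members nevertheless shifted in the same direction in all genotypes in naive cells and in CD40L + IL-4. Fits without a block do not take such shifts out of the spread. Values and calls are from fits without a replicate block, also in LPS + IL-4, unless the block is named. Scripts were tested on simulated data. Alternatives were DESeq2 1.42.0, voom of limma 3.58.1 with quantile normalization, RLE scaling, no filter, no RPKM threshold, an adjusted p under 0.05, a replicate block, only the groups compared, and each library left out.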

Additional observations from a re-analysis of the deposited data

Results flagged for a closer look

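The effect of a genotype differed between stages for 7 members, by a test of the difference of the log2 fold changes itself. Each value is the effect in the stage named first minus that in the stage named second. For PU.1 cKO 8.21% of all genes were called between CD40L + IL-4 and naive and 5.88% between LPS + IL-4 and naive. For SpiB KO 5.36% were called between LPS + IL-4 and naive. For PU.1 SpiB DKO the shares were 14.4% (CD40L + IL-4 against naive), 23.7% (LPS + IL-4 against naive) and 22.5% (between the cultures). With a library left out, some calls of Ebf1, Bach2, Bcl6, Bcl11a and Ikzf3 were lost, as given above.

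Foxo1 was the most frequent of these. Its effect in PU.1 cKO was higher by 1.0625 in CD40L + IL-4 than in naive cells (adjusted p = 0.00226) and by 0.8888 in LPS + IL-4 than in naive cells (0.0104). In PU.1 SpiB DKO the same differences were 1.0933 (adjusted p = 0.000414) and 1.6659 (7.05e-06). They share the naive control libraries.

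The other values against naive cells were those of Bcl11a in PU.1 SpiB DKO in CD40L + IL-4 (-0.7106, adjusted p = 0.00846), of Ikzf3 in SpiB KO in LPS + IL-4 (0.8548, adjusted p = 0.0996), and, in the libraries labelled PU.1 SpiB DKO in LPS + IL-4, of Ikzf3 (0.9948, adjusted p = 0.0115), Bcl6 (2.1878, adjusted p = 0.00352) and Pou2af1 (0.9408, adjusted p = 0.00107). Between LPS + IL-4 and CD40L + IL-4 the effect in PU.1 SpiB DKO differed for Bcl11a (0.9333, adjusted p = 0.00152), Ebf1 (0.7321, adjusted p = 0.122), Bcl6 (1.6676, adjusted p = 0.0298) and Bach2 (0.6041, adjusted p = 0.0739).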

How the results depend on the processing

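The number of members called stayed within 1.5 times in all comparisons run with RLE scaling, without the RPKM threshold, with only the groups compared and with only the control libraries. With an adjusted p under 0.05, naive SpiB KO went from 2 to 0, PU.1 SpiB DKO set against PU.1 cKO in CD40L + IL-4 from 3 to 1, and the difference of effects from 1 to 0 for SpiB KO (LPS + IL-4 against naive) and from 4 to 2 for PU.1 SpiB DKO (between the cultures). DESeq2 called 1 interaction in LPS + IL-4 in place of 0 and 2 differences for PU.1 cKO (LPS + IL-4 against naive) in place of 1. Voom called 1 member in naive SpiB KO, 2 and 1 differences for PU.1 cKO in LPS + IL-4 against naive and against CD40L + IL-4, and 8 for PU.1 SpiB DKO between the cultures. Without the filter, interactions numbered 3 in naive cells, 2 with CD40L + IL-4 and 1 with LPS + IL-4, and differences against naive were 3 and 3 for PU.1 cKO and 1 and 4 for SpiB KO (CD40L + IL-4, then LPS + IL-4). The cause was not tested.

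With the replicate block the same counts were 3, 2 and 1 interactions, 4 and 3 differences for PU.1 cKO and 1 and 4 for SpiB KO. The block changed no other count by over 1.5 times. Over all genes, pairing is borne out only in LPS + IL-4.

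With each library left out in turn, 12 of 26 calls against control were made every time, 16 of 20 between control stages, 8 of 13 for differences of effect and 7 of 14 between PU.1 SpiB DKO and single mutants. Counts ran from 2 to 5 (naive PU.1 cKO), 0 to 4 (naive SpiB KO), 2 to 6 (naive PU.1 SpiB DKO), 2 to 5 (LPS + IL-4 PU.1 cKO), 0 to 1 (LPS + IL-4 SpiB KO), 2 to 4 (LPS + IL-4 PU.1 SpiB DKO), and in CD40L + IL-4 0 to 2 where PU.1 SpiB DKO was set against PU.1 cKO and 2 to 8 where it was set against SpiB KO. Interactions ran from 0 to 3 in naive cells and 0 to 1 in LPS + IL-4. Differences ran from 1 to 2 for PU.1 cKO against naive in either culture, 0 to 1 (CD40L + IL-4) and 0 to 3 (LPS + IL-4) for SpiB KO against naive, and for PU.1 SpiB DKO 2 to 4 (CD40L + IL-4 against naive) and 1 to 7 (between the cultures).

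The sign turned for 4 log2 fold changes that were not called. That of Pou2f2 in CD40L + IL-4 PU.1 cKO ran from -0.7126 to 0.1162 and was 0.0617 without control replicate 1. That of Bcl6 in CD40L + IL-4 SpiB KO ran from -1.1387 to 0.1597 and was 0.0523 without SpiB KO replicate 2. That of Pax5 in naive SpiB KO ran from -0.7297 to 0.0363. That of Bcl6 in LPS + IL-4 SpiB KO ran from -0.0518 (without control replicate 2) to 0.801.

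Groups of 2 libraries limit every value here, and low counts limit Bcl6 in LPS + IL-4.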
